A study of Homo sapiens with 12 samples.

Results

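The 10 genes described here are long non-coding RNAs that carry small nucleolar RNAs (snoRNAs) in their introns, namely GAS5, ZFAS1, SNHG1, SNHG5, SNHG6, SNHG7, SNHG8, SNHG12, SNHG15 and SNHG16. They were taken by symbol from a count table of 28278 genes, all 10 were found, and all 10 had enough counts to be tested in every comparison. Their RNA was measured in WA09-Islet1-GFP cells, 1 line of human embryonic stem cells that makes GFP where the motor neuron transcription factor Islet1 is expressed. The cells were differentiated toward motor neurons, thawed, grown, exposed for 16 hours to the organochlorine pesticide cis-chlordane or to its solvent DMSO, and sorted by FACS on GFP. The sample labels give the dose as 10 µM and the study's methods give 16 µM. All groups share the line, a wild-type genotype and the DMSO. The 4 groups of 3 libraries are control GFP-positive cells (DMSO), treated GFP-positive cells (cis-chlordane), control GFP-negative cells (DMSO) and treated GFP-negative cells (cis-chlordane). Since even the treated libraries carry titles opening with the word untreated, the treatment entry of the labels was used. The titles number the libraries as biological replicates, and the study describes a biological replicate as a separate thaw. Its sequencing methods speak of technical replicates after lanes were joined, and it states that experiments span more than 1 differentiation. If the libraries are separate thaws, the p-values below measure the spread between thaws of 1 line.

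snoRNAs guide the chemical modification of ribosomal RNA. They are cut from introns, and in these hosts the spliced exons that remain have little coding capacity. Because such exons still meet ribosomes, and ribosomes then stop at early stop codons, the spliced hosts are known targets of nonsense-mediated decay (NMD), which needs ongoing translation, and they accumulate when translation or NMD is blocked. Many of them also belong to the 5′ terminal oligopyrimidine (TOP) class, whose transcripts begin with a C and a run of pyrimidines and which includes the mRNAs of ribosomal proteins. The counts below measure RNA levels. Transcription, decay and translation were not measured, and the counts do not separate spliced from unspliced host RNA.

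The hosts differ in the class of snoRNA they carry, counted here from RefSeq (GRCh38.p14). Hosts of box C/D snoRNAs, which guide methylation, are GAS5 with 10 of them and 1 of the other class, SNHG1 with 8, ZFAS1 and SNHG16 with 3 each, SNHG5 with 2 and SNHG6 with 1. Hosts of box H/ACA snoRNAs, which guide pseudouridylation, are SNHG7 with 2 and SNHG8 and SNHG15 with 1 each, while SNHG12 carries 3 of box H/ACA and 1 of box C/D. In hg38 with GENCODE release 44, GAS5 lies on the minus strand of chromosome 1 from 173858559 to 173868882 and SNHG12 on the minus strand of chromosome 1 from 28578538 to 28583132. ZFAS1 lies on the plus strand of chromosome 20 from 49278178 to 49299600, SNHG8 on the plus strand of chromosome 4 from 118278703 to 118285316, and SNHG16 on the plus strand of chromosome 17 from 76557727 to 76670985. On minus strands, SNHG1 lies on chromosome 11 from 62851978 to 62855953, SNHG5 on chromosome 6 from 85650491 to 85678932, SNHG6 on chromosome 8 from 66920561 to 66926398, SNHG7 on chromosome 9 from 136721366 to 136728184, and SNHG15 on chromosome 7 from 44983019 to 44986961.

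Exons of 7 hosts overlap exons of a gene on the opposite strand, among them GAS5-AS1 for GAS5 and ZNFX1 for ZFAS1. The setting for strand in the authors' counting is not given in the sources used here, so reads of those overlaps cannot be assigned with certainty. The hosts without such an overlap are SNHG1, SNHG5 and SNHG15. For SNHG1, SNHG8 and SNHG15 the exons of all GENCODE transcripts together cover the whole gene, so reads from introns can fall within annotated exons. Apart from snoRNA genes, exons of ZFAS1 and SNHG5 also overlap annotated genes on their own strand, whose reads could be shared. Annotated exons of several hosts, SNHG1 among them, also cover snoRNA genes on the same strand.

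The starts of the hosts are shown because the TOP motif that sets this class of transcripts apart sits at the first base. RefSeq promoter entries matched 8 of the 10 symbols, and SNHG6 and SNHG15 had no entry. Each line gives 10 bases before and 20 bases from the RefSeq start, 5′ to 3′ on the gene's strand in GRCh38.p14, with capitals marking an oligopyrimidine start, searched on that strand as a C followed by at least 4 further C or T within 5 bases of the start.
GAS5, chr1:173869026-173869055, minus strand: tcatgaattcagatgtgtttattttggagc
ZFAS1, chr20:49278632-49278661, plus strand: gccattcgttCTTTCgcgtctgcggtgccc
SNHG1, chr11:62855866-62855895, minus strand: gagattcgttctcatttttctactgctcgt
SNHG5, chr6:85678714-85678743, minus strand: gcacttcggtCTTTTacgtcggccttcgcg
SNHG7, chr9:136728165-136728194, minus strand: ccttctcgtCCTCTgcgtgcgccggaggct
SNHG8, chr4:118278752-118278781, plus strand: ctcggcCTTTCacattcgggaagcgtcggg
SNHG12, chr1:28581854-28581883, minus strand: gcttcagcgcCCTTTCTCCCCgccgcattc
SNHG16, chr17:76557754-76557783, plus strand: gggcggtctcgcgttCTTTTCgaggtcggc
An oligopyrimidine start was found in 6 of these 8 hosts, in 74.4% of 78 cytosolic ribosomal protein genes and in 21.1% of all 35116 RefSeq starts. It began at the RefSeq start itself in ZFAS1, SNHG5 and SNHG12. Counted in bases from that start, it began at -1 in SNHG7, -4 in SNHG8 and 5 in SNHG16. The longest of the 6, in SNHG12, runs over 11 bases. The start entered for GAS5 lies upstream of its start in GENCODE, and for GAS5 and SNHG1 the letters searched were not in the window. The starts entered for ZFAS1, SNHG1, SNHG5, SNHG8, SNHG12 and SNHG16 lie downstream of the outermost start in GENCODE, farthest for SNHG12. The motif TGATGNAA, a binding site of the stress factor ATF4 with its partners, was searched on both strands of the 300 bases around each start. It was in 0 of the 8 host windows and in 3.62% of all windows of that length.

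Libraries held between 23414935 and 38347050 counts (median 31553596), and the 10 hosts between 119 and 7870 counts each. Levels are given as CPM, counts scaled to library size by the TMM method over the 12 libraries. Markers of motor neurons (ISL1, MNX1, CHAT and others, 7 genes) summed to between 1719 and 1922 CPM in control GFP-positive and between 294 and 338 CPM in control GFP-negative libraries, and to between 513 and 701 CPM in treated GFP-positive and between 105 and 138 CPM in treated GFP-negative libraries. Markers of cycling cells (7 genes, MKI67 among them) summed to between 890 and 953 CPM in control GFP-negative and between 88.7 and 123 CPM in control GFP-positive libraries, and to between 271 and 334 CPM in treated GFP-negative and between 42.8 and 47.0 CPM in treated GFP-positive libraries. Control GFP-negative replicate 3 stood apart by 6185 CPM over 5 blood genes, 3 of them globins, against 12.2 and 14.8 CPM in the rest of its group, and treated GFP-negative replicates 1 and 3 had 241 and 212 CPM. In sorted bulk RNA, fewer cells of a type and less RNA per cell cannot be told apart.

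Per kilobase of the GENCODE canonical transcript, SNHG16 had the highest level in all 4 groups, followed by GAS5 and SNHG1. In control GFP-positive cells the means were 121 ± 35.3 CPM per kb for SNHG16, 53.5 ± 8.65 for GAS5 and 26.8 ± 4.91 for SNHG1 (SD, n = 3), and the libraries of these did not overlap with those of the next in order. SNHG7, SNHG6, ZFAS1, SNHG5 and SNHG15 followed, at 18.1 ± 2.39, 17.0 ± 5.00, 14.1 ± 3.04, 12.2 ± 2.75 and 8.73 ± 1.18 CPM per kb, and each overlapped with its neighbour in the order. SNHG12 and SNHG8 were lowest, at 3.03 ± 1.21 and 2.49 ± 0.762 CPM per kb, and overlapped with each other. In treated GFP-positive cells the order was kept apart from an exchange of SNHG12 and SNHG8, which again overlapped. In GFP-negative cells SNHG5 ranked next after SNHG1, at 27.8 ± 15.4 CPM per kb in controls, and overlapped with SNHG7 and SNHG1. In treated GFP-positive cells GAS5, at 123 ± 26.5 CPM per kb, and SNHG1, at 108 ± 19.5, came to overlap. The order rests on 1 transcript per gene, from 498 bases for SNHG16 to 6166 for SNHG8, and a host with several isoforms could take another place. By mean CPM alone, SNHG16 (83.5) was below ZFAS1 (132), SNHG1 (126) and GAS5 (94.1) in treated GFP-positive cells. It was above ZFAS1 (133 against 105) in control GFP-negative cells.

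**Figure D1:**
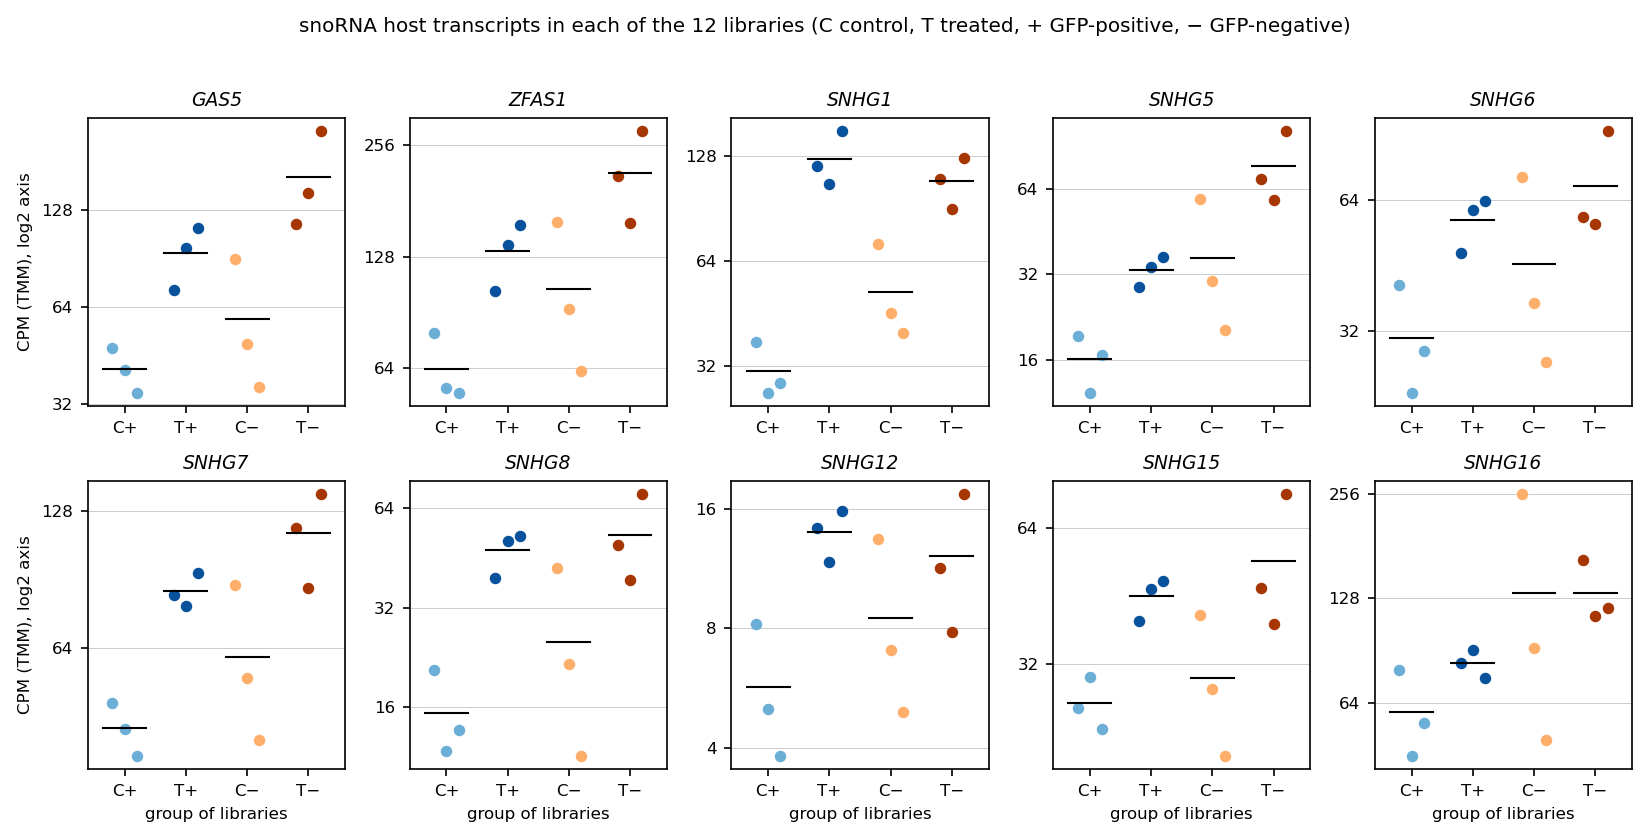
CPM after TMM scaling (log2 axis) of each host transcript in every library, in panels by gene, with points for replicates 1 to 3 from left to right and a line at the group mean. Treated GFP-positive points lie above the control GFP-positive points for every gene but SNHG16, and in the control GFP-negative group replicate 1 is highest and replicate 3 lowest for all 10 genes.

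The first comparison, of treated with control GFP-positive cells, shows the response of the Islet1-expressing cells to cis-chlordane. All 10 hosts rose. Their log2 fold changes ran from 0.54 for SNHG16 to 2.08 for SNHG1 with a median of 1.12, where the median of all 15333 genes tested was 0.03. All 10 were called at an adjusted p under 0.05, and 7 were DEGs, which also need a 2-fold change. Over all genes 26.5% were called higher and 24.4% lower, and 12.8% were DEGs that were higher. For 9 hosts all treated libraries were above all control libraries, which was true of 26.9% of the genes tested. In the same comparison 7 of 7 motor neuron markers and 6 of 7 markers of cycling cells were called lower, and their part in the host values was not tested.

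SNHG1, the host of a run of C/D snoRNAs on chromosome 11, rose most. Its control GFP-positive libraries had 37.6, 26.9 and 28.8 CPM and its treated ones 119, 107 and 151 CPM. The groups were far apart, and the lowest treated library lay well above the highest control library. The log2 fold change was 2.08 (SE, standard error, 0.18; adjusted p = 1.21e-11), higher than that of 96.9% of the genes tested.

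SNHG8, host of the H/ACA snoRNA SNORA24, had the next largest change. It had 20.7, 11.7 and 13.6 CPM in control and 39.4, 51.1 and 52.8 CPM in treated libraries. No treated library came near the controls, and the log2 fold change was 1.71 (SE 0.20, adjusted p = 1.32e-08). SNHG12, the least abundant host by CPM, had 8.20, 5.01 and 3.81 CPM in control and 14.4, 11.8 and 15.8 CPM in treated libraries. Its control libraries differed by 2.15-fold among themselves, and the treated ones still lay above all of them, with a log2 fold change of 1.37 (SE 0.24, adjusted p = 1.14e-05).

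GAS5, named for its rise in growth-arrested cells, hosts more snoRNAs than the others. It had 47.9, 40.7 and 34.7 CPM in control and 72.2, 97.5 and 113 CPM in treated GFP-positive libraries. The groups did not overlap, and the log2 fold change was 1.26 (SE 0.18, adjusted p = 5.24e-07). ZFAS1, which starts head to head with the coding gene ZNFX1, had 79.6, 56.6 and 54.9 CPM in control and 104, 138 and 155 CPM in treated libraries. All treated libraries were above the controls, with a log2 fold change of 1.12 (SE 0.18, adjusted p = 3.00e-06).

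The remaining hosts changed less. SNHG5, host of the pair SNORD50A and SNORD50B, had 16.1 ± 3.62 CPM in control and 33.3 ± 4.07 CPM in treated libraries, and its log2 fold change was 1.12 (SE 0.20). SNHG7, host of a pair of H/ACA snoRNAs, had 42.7 ± 5.64 and 85.5 ± 7.30 CPM, and its log2 fold change was 1.07 (SE 0.17). SNHG6 and SNHG15, with 1 snoRNA each, had log2 fold changes of 0.96 (SE 0.19) and 0.85 (SE 0.18), just under the 2-fold limit. The adjusted p of these 4 lay between 2.81e-06 and 0.000155, and none of them overlapped between groups.

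SNHG16 had the smallest change and was the exception to the separation of groups. It had 79.6, 45.1 and 56.2 CPM in control and 83.6, 91.2 and 75.6 CPM in treated libraries. Treated replicate 3 lay below control replicate 1. The log2 fold change was 0.54 (SE 0.18, adjusted p = 0.0141), and the call was lost without control GFP-positive replicate 2 (0.36, adjusted p = 0.142) or replicate 3 (0.48, adjusted p = 0.0626), after a trend with GC content was removed (0.40, adjusted p = 0.0698), and in a fit of all 12 libraries (0.47, adjusted p = 0.361). The other 9 hosts kept their call in all alternatives. With scaling by library size alone the median of all genes moved from 0.03 to 0.14 on the log2 scale, and the median of the hosts above it was 1.09 with TMM and 1.08 without.

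**Figure D2:**
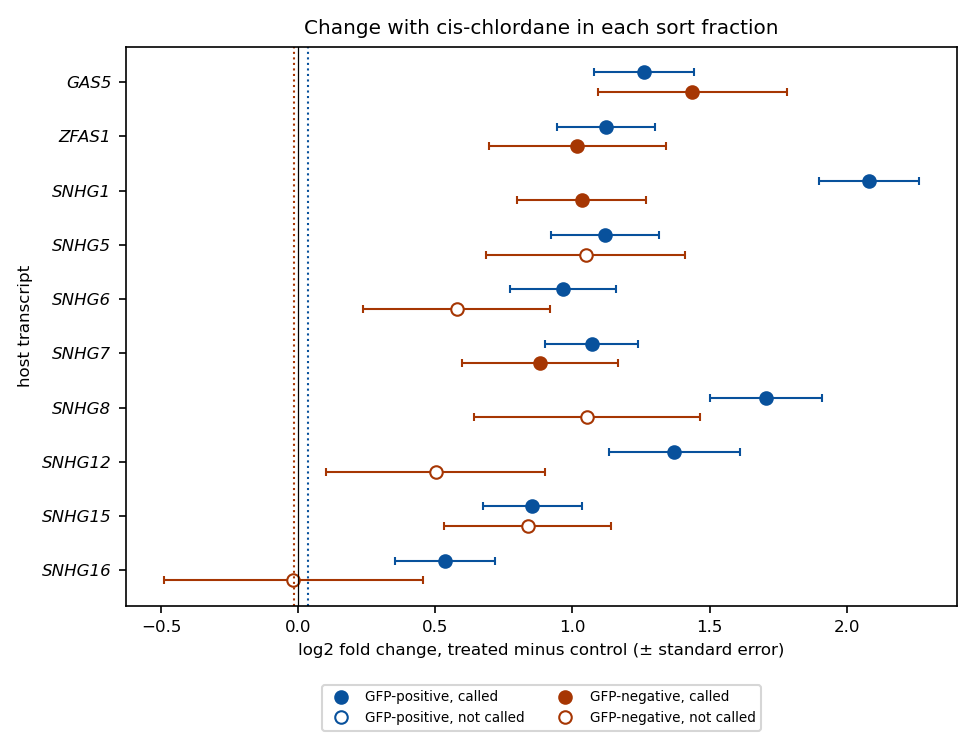
Log2 fold change with cis-chlordane (x axis, treated minus control, bars: standard error) of each host transcript in GFP-positive and GFP-negative cells, filled where called and open where not, with dotted lines at the median of all genes tested. All 10 GFP-positive points are filled and lie between 0.54 and 2.08, and 4 of the GFP-negative points are filled.

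In GFP-negative cells the same question was asked of the other cells of the culture. Of the 10 hosts, 9 had a positive log2 fold change, with a median of 0.95 against -0.01 for all 15513 genes tested. Only 4 were called higher, GAS5, SNHG1, ZFAS1 and SNHG7, and 3 of these were DEGs. Over all genes 15.3% were called higher and 16.2% lower, and 8.59% were DEGs that were higher. GAS5 and SNHG1 were the 2 hosts whose groups did not overlap, where 24% of the genes tested had every treated library above every control. In this comparison 7 of 7 markers of cycling cells and 5 of 7 motor neuron markers were called lower, and their part in the host values was not tested.

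The control libraries spread widely for every host. GAS5 had 90.5, 49.4 and 36.1 CPM in control and 115, 144 and 225 CPM in treated GFP-negative libraries. Its groups stayed apart, and the log2 fold change was 1.44 (SE 0.34, adjusted p = 0.0112). SNHG1 had 71.6, 45.5 and 40.0 CPM in control and 109.7, 90.2 and 127 CPM in treated libraries. These groups were apart too, with a log2 fold change of 1.03 (SE 0.24, adjusted p = 0.00900).

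ZFAS1 had 159, 92.5 and 62.9 CPM in control and 211, 157 and 279 CPM in treated GFP-negative libraries. Control replicate 1 lay just above treated replicate 2. The log2 fold changes of ZFAS1 and SNHG7 were 1.02 (SE 0.32, adjusted p = 0.0378) and 0.88 (SE 0.28, adjusted p = 0.0398). SNHG5 and SNHG8 had fold changes of the same size, 1.05 each on the log2 scale (SEs 0.36 and 0.41), and missed the threshold with adjusted p = 0.0514 and adjusted p = 0.0783. SNHG15, at 0.84 (SE 0.30), SNHG6, at 0.58 (SE 0.34), and SNHG12, at 0.50 (SE 0.40), were not called by edgeR either, with adjusted p = 0.0616, 0.226 and 0.372. DESeq2 and a fit of all 12 libraries did call SNHG5, SNHG8 and SNHG15, where 17.9% and 18.9% of all genes were called higher.

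SNHG16 was the host with no difference in means here. It had 255, 92.3 and 50.1 CPM in control and 165, 114 and 119.8 CPM in treated GFP-negative libraries. The control libraries spanned 5.09-fold and enclosed all treated ones, and the log2 fold change was -0.02 (SE 0.47, adjusted p = 0.980). Without control GFP-negative replicate 1 the same value was 0.88 (adjusted p = 0.0346).

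Replicate 1 was the highest and replicate 3 the lowest of the control GFP-negative libraries for all 10 hosts. Their summed level was 893, 459 and 313 CPM in those libraries, against 954, 794 and 1248 CPM in the treated GFP-negative ones. Cytosolic ribosomal protein mRNAs had the same order among the controls, at 92115, 64176 and 54397 CPM, and the 6185 CPM of blood genes were in replicate 3, the lowest. The part of either in the spread of the hosts was not tested. Without control GFP-negative replicate 1, 9 hosts were called higher and 8 were DEGs, where 16.2% of genes were called higher. Without replicate 2 none was called by edgeR, with 4 at an unadjusted p under 0.05, where 8.70% of genes were called higher. Without replicate 3, the library with blood genes, GAS5 and SNHG1 remained, beside 17.5% of genes. Without treated replicate 1 there were 2 called, beside 8.53% of genes, and without treated replicate 3 there was 1, beside 10.8%.

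**Figure D3:**
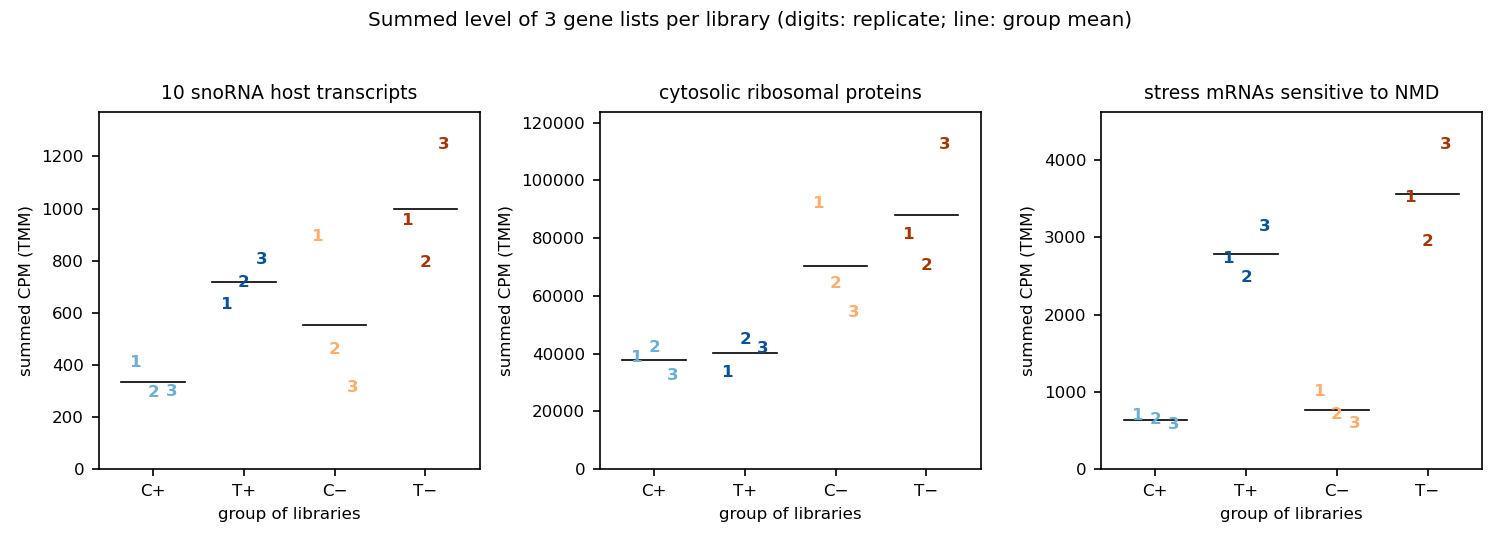
Summed CPM (y axis from 0) of the 10 host transcripts, of cytosolic ribosomal protein mRNAs and of stress mRNAs sensitive to NMD in each library, with digits for the replicate and a line at the group mean. In GFP-positive cells the host sum is 294 to 408 CPM in controls and 633 to 806 CPM in treated libraries, while the ribosomal protein sums of these groups overlap.

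Whether the response differs between the sort fractions was tested over all 12 libraries by an interaction term. The difference of the responses, GFP-positive minus GFP-negative, had a median of 0.20 on the log2 scale over the hosts and was positive for 7 of them. None of the 10 was called by edgeR, 1 (SNHG1) had an unadjusted p under 0.05 and was called by DESeq2 (adjusted p = 0.0374), and over the 16226 genes tested 0.968% were called higher and 1.22% lower. For SNHG1 the difference was 0.96 (SE 0.31, adjusted p = 0.129). GFP-positive and GFP-negative libraries of one treatment and number were taken as sorts of the same culture. The titles give only the shared number, so this pairing is an assumption. With the culture as a block the difference for SNHG1 was 0.93 (SE 0.17, adjusted p = 0.00581), while 3.2% of genes were called higher and 4.59% lower. SNHG12 followed at 0.79 with the block (SE 0.25, adjusted p = 0.0703), SNHG8 at 0.45 (SE 0.31, adjusted p = 0.395), and the other 7 lay between -0.33 and 0.24. With library size alone, 76% of the interaction calls over all genes were higher, against 44.2% with TMM.

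SNHG1 lies head to head with SLC3A2, the heavy chain of several amino acid transporters, whose start in GENCODE is 51 bases from that of SNHG1 on the other strand. SLC3A2 had 169 ± 22.5 CPM in control and 2217 ± 128 CPM in treated GFP-positive cells, a log2 fold change of 3.78 (SE 0.18, adjusted p = 7.24e-19). In GFP-negative cells it had 268 ± 62.0 and 3607 ± 502 CPM, and the log2 fold change was 3.73 (SE 0.21, adjusted p = 8.69e-06). SNHG1, beside it, had 2.08 in GFP-positive and 1.03 in GFP-negative cells. Whether SNHG1 follows the neighbour's promoter was not tested. The other hosts with a coding gene starting within 1000 bases on the other strand were GAS5 and ZFAS1, whose annotated ends overlap that gene. ZBTB37, beside GAS5, had a log2 fold change of 0.83 in GFP-positive cells (SE 0.20, adjusted p = 0.000579) and 0.24 in GFP-negative cells (SE 0.26, adjusted p = 0.533). ZNFX1, beside ZFAS1, had -0.12 (SE 0.19, adjusted p = 0.615) and -0.22 (SE 0.22, adjusted p = 0.477).

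The other gene lists give the setting in which the hosts rose in GFP-positive cells, and their counts stand beside the 26.5% of all genes called higher and the 24.4% called lower. In counts of the lists, rose and fell mean called higher and called lower. Of 21 other non-coding snoRNA hosts 15 were tested, 7 rose and 1 fell, and the median log2 fold change was 0.46. The DEGs among them were EPB41L4A-AS1 (1.67, SE 0.19) and SNHG21 (1.29, SE 0.28). Of 39 protein-coding snoRNA hosts tested 14 rose and 2 fell, with a median of 0.31. The largest rises were those of HSPA9, a mitochondrial chaperone (2.29, SE 0.16), TAF1D, a subunit of the RNA polymerase I factor SL1 (1.94, SE 0.19), and GNL3, a nucleolar GTPase (1.63, SE 0.18).

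Ribosomal protein mRNAs, the main TOP class, moved little beside the hosts. Of 78 tested 25 rose and 3 fell, with a median of 0.22, and their summed level was 37690 ± 5045 CPM in control and 40072 ± 5904 CPM in treated GFP-positive libraries. The log2 fold change was positive for 53 of the 78, beside 7940 of all 15333 genes tested. The 22 of them that host snoRNAs had a median of 0.31 and the other 56 one of 0.12. Of 15 other TOP mRNAs 8 rose, with a median of 0.61. The largest rises there were in EIF3E, a translation initiation factor subunit, and NPM1, a nucleolar chaperone, at 1.49 and 1.48 (SEs 0.19 and 0.17), and in TPT1, at 1.17 (SE 0.17).

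Of 23 NMD factors 8 rose and 3 fell, with a median of 0.21. MAGOH and MAGOHB, which encode a core protein of the exon junction complex that marks spliced RNA, had log2 fold changes of 1.77 and 1.42 (SEs 0.21 and 0.22), and UPF2, a central NMD factor, 1.47 (SE 0.19). The 11 stress mRNAs known to be sensitive to NMD all rose at least 2-fold, with a median of 2.52, led by SLC7A11 (5.63, SE 0.25), ATF3 (4.54, SE 0.19) and DDIT3 (3.62, SE 0.21). These 3 genes are also known targets of the stress factor ATF4, so the list is not one of NMD alone. Of 18 snoRNP proteins and assembly factors 4 rose and 1 fell, with a median of 0.07, and the DEGs were NOP58, a core protein of C/D snoRNPs (1.72, SE 0.20), and GAR1, one of H/ACA snoRNPs (1.03, SE 0.23).

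In GFP-negative cells, 15.3% of all genes were called higher and 16.2% lower. Of 16 other non-coding hosts 2 rose and 1 fell (median 0.06), and of 39 protein-coding hosts 6 rose and 2 fell (median 0.31). Of 78 ribosomal protein mRNAs 3 rose and 1 fell (median 0.29). The log2 fold change was positive for 9, 32 and 72 genes of these 3 lists, beside 7631 of all 15513 genes tested. EPB41L4A-AS1 rose here too (1.57 on the log2 scale, SE 0.29), as did HSPA9 (2.12, SE 0.15) and TAF1D (1.16, SE 0.20), while RCC1, a chromatin-bound exchange factor, fell by 1.13 (SE 0.17). Of the other TOP mRNAs 9 of 15 rose (median 0.62), with TPT1, EIF3E and EEF1A1 at 1.11, 1.11 and 1.03 (SEs 0.28, 0.25 and 0.16). Of the NMD factors 4 rose and 2 fell (median 0.03), MAGOH being the DEG (1.25, SE 0.29). Of the stress mRNAs 10 of 11 rose (median 2.55), with SLC7A11 at 3.98 (SE 0.21), ATF3 at 3.64 (SE 0.26) and CHAC1 at 3.48 (SE 0.54). Of the 18 snoRNP proteins 3 fell and 0 rose by edgeR (1 at an unadjusted p under 0.05, and 1 called by DESeq2), with a median of 0.07. The lists were chosen with earlier results of these data known and were described without a test of the list.

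**Figure D4:**
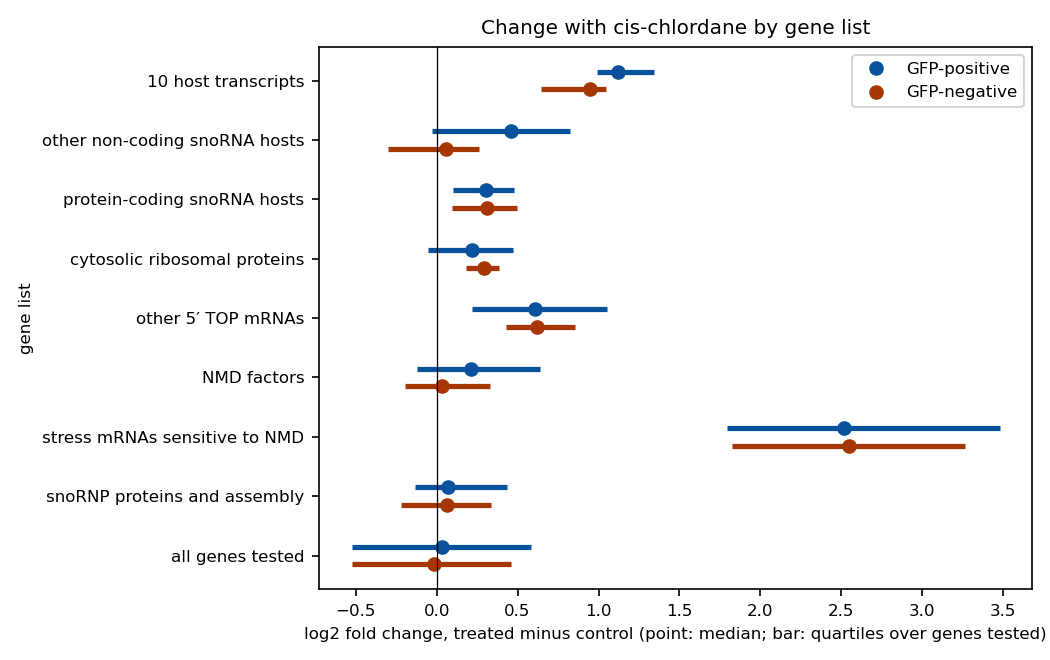
Median (point) and quartiles (bar) of the log2 fold change with cis-chlordane over the tested genes of each list (y axis), in GFP-positive and GFP-negative cells. The 10 hosts have medians of 1.12 and 0.95, between those of the stress mRNAs sensitive to NMD (2.52 and 2.55) and those of ribosomal protein mRNAs (0.22 and 0.29).

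Rows for the snoRNAs themselves held few counts. Of 37 snoRNAs that RefSeq places inside the hosts 36 had a row, 5 of these rows were at 0 in all libraries, and the highest count of a row in a library was 43. Summed over the 3 libraries of a group the rows had 488 counts in control and 780 in treated GFP-positive cells, and 639 and 437 counts in control and treated GFP-negative cells, or 0.990% of the counts of their hosts over all groups. In GFP-positive cells 8 rows could be tested, and 2 of them, SNORD22 and SNORD29 in SNHG1, were called higher at 1.21 (SE 0.46, adjusted p = 0.0255) and 1.33 (SE 0.49, adjusted p = 0.0217). DESeq2 called neither. In GFP-negative cells 7 could be tested, and 0 were called by edgeR or DESeq2 or had an unadjusted p under 0.05. The libraries were made from mRNA, which mature snoRNAs are not, so these counts say nothing of mature snoRNA and cannot be told apart from unspliced host RNA. Many of these snoRNAs also lie within annotated exons of their host. How reads shared by a snoRNA and its host were counted was not examined, and it could lower the counts of the rows.

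The third comparison set control GFP-positive against control GFP-negative cells. All 10 hosts had a lower mean in GFP-positive cells, with log2 fold changes from -1.29 for SNHG5 to -0.28 for SNHG15 and a median of -0.74, where all 15404 genes had a median of -0.02. Of these, 3 were called lower, ZFAS1, SNHG1 and SNHG5, and over all genes 23.1% were called lower. For SNHG1 and SNHG5 every GFP-positive library lay below every GFP-negative one, as for 24.1% of the genes tested. With the culture as a block 9 hosts were called lower, SNHG15 being the other one, where 27.7% of all genes were called lower.

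SNHG5 had 19.3, 12.2 and 16.7 CPM in control GFP-positive and 59.3, 30.3 and 20.3 CPM in control GFP-negative libraries. The lowest GFP-negative library lay just above the highest GFP-positive one, and the log2 fold change was -1.29 (SE 0.35, adjusted p = 0.0138) without and -1.19 (SE 0.22, adjusted p = 0.00148) with the block. For SNHG1 it was -0.85 (SE 0.23, adjusted p = 0.0143) without and -0.83 (SE 0.13, adjusted p = 0.000533) with the block. ZFAS1 changed by -0.82 (SE 0.29, adjusted p = 0.0470), and by -0.74 with the block (SE 0.15, adjusted p = 0.00196). SNHG16 had the widest spread, and its -1.23 (SE 0.47, adjusted p = 0.0621) was not called without the block. It was called with the block, at -0.97 (SE 0.27, adjusted p = 0.0119), in a fit of all 12 libraries and without control GFP-negative replicate 3 (-1.61, SE 0.29). GAS5, SNHG6, SNHG7, SNHG8 and SNHG12 lay between -0.81 and -0.61 without and between -0.67 and -0.53 with the block, where their adjusted p ran from 0.0105 to 0.0318.

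The count depended on single libraries. It was 9 without control GFP-negative replicate 3, the library with blood genes, 2 without control GFP-negative replicate 1, 0 by edgeR without control GFP-positive replicate 2 (2 at an unadjusted p under 0.05) and 1 without control GFP-positive replicate 3. In these fits 25%, 23.1%, 18.5% and 17.7% of all genes were called lower. The other lists had negative medians too. Of 78 ribosomal protein mRNAs 75 were called lower with a median of -1.01, of 39 protein-coding hosts 33 (median -0.89), of 16 other non-coding hosts 8 (median -0.75), of 15 other TOP mRNAs 10 (median -0.80) and of 18 snoRNP proteins 12 (median -0.68). Of 23 NMD factors 8 were called lower (median -0.13) and of 11 stress mRNAs 4 (median -0.35), beside 23.1% of all genes. The sum over cycling markers was several times higher in GFP-negative cells, and its part in these differences was not tested.

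In treated cells, 4 hosts were called lower in GFP-positive than in GFP-negative cells, GAS5, ZFAS1, SNHG5 and SNHG16, where 24.9% of 15416 genes were called lower. The libraries of these 4 did not overlap, as for 29.6% of the genes tested in that direction. The median of the 10 hosts was -0.31, against 0.05 for all genes. SNHG5 had 28.96, 33.9 and 37.0 CPM in treated GFP-positive and 69.8, 58.8 and 102.7 CPM in treated GFP-negative libraries. Every GFP-negative library was well above the GFP-positive ones, and the log2 fold change was -1.18 (SE 0.20, adjusted p = 0.000381). GAS5, ZFAS1 and SNHG16 had -0.75, -0.67 and -0.65 (SEs 0.23, 0.20 and 0.17).

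SNHG7 had -0.39 (SE 0.17, adjusted p = 0.0715) and was called with the block, at -0.38 (SE 0.14, adjusted p = 0.0256). SNHG6, SNHG8 and SNHG15 lay between -0.24 and -0.12, and their libraries overlapped. SNHG1 and SNHG12 were the hosts with a higher mean in GFP-positive cells, at 0.23 each (SEs 0.17 and 0.25), and were not called. SNHG1 thus had -0.85 in controls and 0.23 in treated cells, which share no libraries, and the interaction given above, from its own fit of 12 libraries, is the test of that difference. Without treated GFP-negative replicate 3, the highest library for 9 hosts, 2 hosts were called lower, and the same number without treated GFP-positive replicate 1, beside 23.4% and 20.7% of all genes. With library size alone 61.8% of the calls over all genes were higher, against 49.9% with TMM, and SNHG8 turned to 0.05. The treatment comparisons and the sort comparisons share their control or treated libraries, so that each is given by its own values only.

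**Figure D5:**
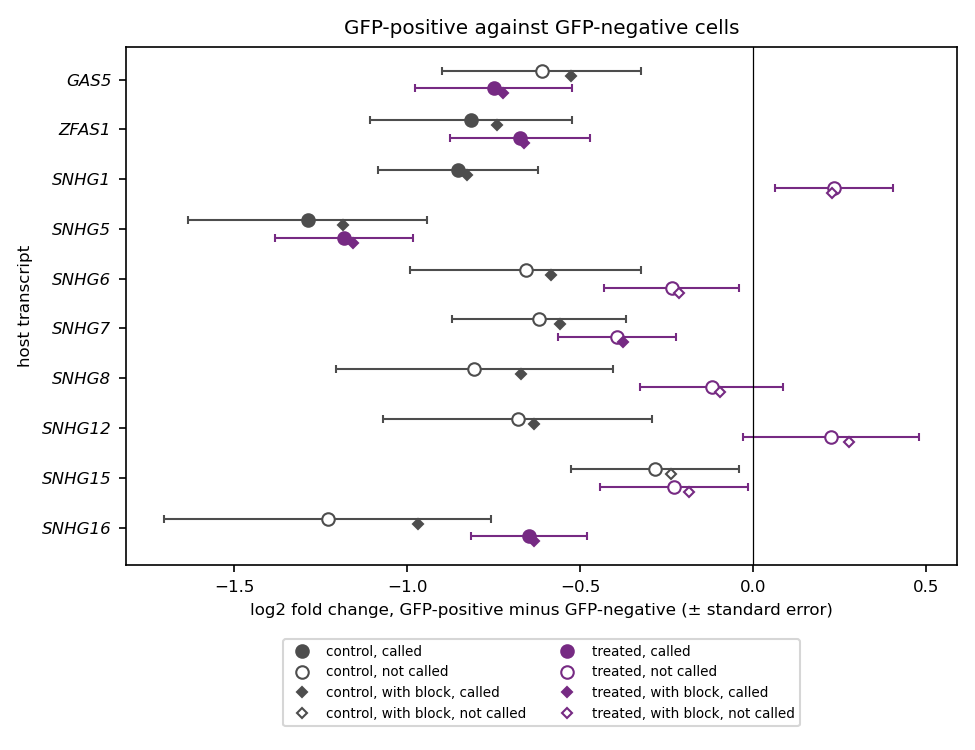
Log2 fold change of GFP-positive minus GFP-negative cells (x axis, bars: standard error) for each host transcript in control and treated cells, circles without and diamonds with the culture as a block, filled where called. The control values all lie below 0, and in treated cells SNHG1 and SNHG12 lie at 0.23.

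The hosts differed in how closely each followed their mean profile across the 12 libraries. On log2(CPM + 0.5) centred per gene, the root mean square distance to the mean profile of the 10 was 0.12 for SNHG7, 0.13 for ZFAS1 and 0.17 for SNHG6. It was largest for SNHG16 (0.46), SNHG1 (0.36) and SNHG5 (0.34). The mean profile includes the host itself, which makes the distance of a host smaller, while genes outside the 10 have no part in it. The closest pair was ZFAS1 and SNHG7, at 0.19. Among 9629 other genes with a mean of at least 10 CPM, 620 were closer to the mean profile than SNHG16. The closest 5 were BUD31 (0.15), PTRH2 (0.17), TPT1 (0.18), PSMA5 (0.18) and ERP29 (0.18), all protein-coding. TPT1 is a TOP mRNA, PSMA5 a proteasome subunit, ERP29 a protein of the endoplasmic reticulum lumen and BUD31 a splicing factor. Their log2 fold changes in GFP-positive cells lay between 0.90 and 1.23 and in GFP-negative cells between 0.71 and 1.11. These distances describe 12 libraries that share treatment and sort, and carry no test.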

How the data were processed

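The authors joined the lanes of each library (Illumina stranded mRNA kit, single-end reads of 100 bases, TRIzol RNA), mapped reads as reverse-stranded to hg38 with HISAT2 and Ensembl release 103, and deposited whole-number counts per gene, which the submitters' processing notes credit to featureCounts. The tool versions and the strand setting of the counting are not given in the sources used here. Of the per-sample columns, 0 were left unused.

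The deposited counts were tested with edgeR 4.0.16 in R 4.3.3 (TMM; filterByExpr with a minimum count of 10 and a minimum total of 15; quasi-likelihood F-test; Benjamini-Hochberg adjustment over all genes tested). Called means an adjusted p under 0.05, DEG also at least 2-fold. Each comparison used the 6 libraries of its 2 groups, and the interaction all 12. CPM used TMM over 12 libraries. An exact permutation test of 3 against 3 libraries reaches 0.1 at the lowest and was not run. The fits were tested on simulated data with the same spread for all genes and groups. The wider spread of the hosts in control GFP-negative libraries was not simulated.

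Members and lists were chosen with earlier results of these data known. All 10 members are named in each comparison, and from other lists at most the 3 DEGs with the largest change and a mean of at least 1 CPM per treatment comparison, and not every gene that this selects is reported here. Neighbouring genes and the snoRNAs inside hosts were taken by position.

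Alternatives were DESeq2 1.42.0, a replicate block, scaling by RLE or library size, a filter of 10 counts in each library or none, 1 fit of all 12 libraries, removal of trends with GC content or length (loess, span 0.5), and each library left out. Same-numbered GFP-positive and GFP-negative libraries of a treatment were paired as sorts of the same culture, an assumption taken from the shared number. Over 13368 genes with at least 10 counts in every library, the correlation of their deviations from group means was 0.45, 0.16 and 0.48 for the 3 control pairs and 0.20, 0.28 and 0.55 for the 3 treated pairs (genes are not replicates). Treated GFP-positive replicate 1 correlated better with treated GFP-negative replicate 2 (0.283) than with its own number (0.203). The other GFP-positive libraries correlated best with their own number.

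Positions came from hg38 with GENCODE 44, which is not the authors' annotation and matched 25482 of 28278 symbols, and start sequences from RefSeq. The snoRNA rows held few counts and came from mRNA libraries.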

Additional observations from a re-analysis of the deposited data

Results flagged for a closer look

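One result differed between the sort fractions by a test of the difference itself. The response of SNHG1 to cis-chlordane, GFP-positive minus GFP-negative, was 0.93 on the log2 scale with the culture as a replicate block (SE 0.17, adjusted p = 0.00581 by edgeR over 16226 genes). Without the block it was 0.96 and was not called (adjusted p = 0.129). The block assumes that same-numbered sorts of a treatment come from the same culture. The difference was positive in all alternatives, and between 0.69 and 1.15 with each library left out. In those fits, made without the block, edgeR called 0 of the 10 hosts, with 1 to 4 at an unadjusted p under 0.05. There 0.411% to 1.28% of all genes were called higher. With the block 3.2% of all genes were called higher and 4.59% lower, and in the main fit without it 0.968% and 1.22%. SNHG1 had 37.6, 26.9 and 28.8 CPM in control and 119, 107 and 151 CPM in treated GFP-positive libraries, and 71.6, 45.5 and 40.0 CPM in control and 109.7, 90.2 and 127 CPM in treated GFP-negative libraries. The cause was not tested.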

How the results depend on the processing

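In GFP-positive cells the 10 hosts called and 7 DEGs stayed within 1.5 times of those counts under all alternatives run (9 to 10 called and 5 to 8 DEGs with each library left out). Of all genes 26.5% were called higher in the main fit and 20.9% to 25.4% with each library left out. In GFP-negative cells 4 called and 3 DEGs became 7 and 5 with DESeq2, 2 and 1 with the GC trend removed, 7 and 5 in a fit of 12 libraries, and 0 to 9 and 0 to 8 with each library left out. Of all genes 15.3% were called higher in the main fit, 17.9% with DESeq2 and 18.9% in the fit of 12 libraries. With each library left out the share was 8.53% to 17.5%, and that with the GC trend removed is not reported here. Calls over all genes there, 2367 higher and 2520 lower, were 1370 and 1522 without control GFP-negative replicate 2 and 1356 and 1414 without treated GFP-negative replicate 1. SNHG16 in GFP-negative cells turned from -0.02 to 0.29 with the replicate block and to 0.0037 in a fit of 12 libraries, and ranged from -0.41 to 0.88 with each library left out. Same-numbered treated and control libraries share only a number (correlations of -0.04, 0.18 and 0.24 in GFP-positive and 0.06, 0.25 and -0.08 in GFP-negative cells), and not every library correlated best with its own number. The block left 10 and 4 hosts called, beside 27.7% and 13.9% of all genes called higher.

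In control cells the 3 hosts called lower in GFP-positive cells became 9 with the replicate block, 9 with the block and the GC trend removed, 8 with the block and the length trend removed, and 0 to 9 with each library left out, and SNHG15 ranged from -0.48 to 0.0083. Of all genes 23.1% were called lower in the main fit, 27.7% with the block and 17.7% to 25% with each library left out. Shares for the fits with a trend removed are not reported here. In treated cells the hosts called higher went from 0 to 1 with the block and the GC trend removed and to 2 with the block and the length trend removed. With the block alone 30.4% of all genes were called higher. Hosts called lower in treated cells went from 4 to 2 in a fit of 12 libraries and ranged from 2 to 5 with each library left out. The shares of all genes called lower were 24.9% in the main fit, 23.6% in the fit of 12 libraries and 20.4% to 23.9% with each library left out. There SNHG8 turned to 0.051 with library size alone and SNHG6 to 0.065 with the block and the length trend removed. With each library left out SNHG6 ranged from -0.35 to 0.0086, SNHG8 from -0.29 to 0.12, SNHG12 from -0.0039 to 0.56 and SNHG15 from -0.40 to 0.076.

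For the interaction, hosts called higher went from 0 to 1 with library size alone, DESeq2 or the replicate block, and to 2 (SNHG1 and SNHG12) with the block and the GC or length trend removed. With each library left out, edgeR called 0 hosts, with 1 to 4 at an unadjusted p under 0.05. SNHG5, at -0.02, turned to 0.043 with RLE scaling, 0.21 with library size, 0.14 with at least 10 counts in every library and 0.042 with DESeq2. SNHG15 turned to 0.19 with library size and 0.091 with at least 10 counts, and ZFAS1 to -0.050 with the block, and to -0.077 and -0.071 with the block and the GC or length trend removed. With each library left out the ranges that crossed 0 were -0.70 to 0.064 for GAS5, -0.40 to 0.32 for ZFAS1, -0.53 to 0.27 for SNHG5, -0.19 to 0.58 for SNHG6, -0.24 to 0.33 for SNHG7, -0.024 to 0.91 for SNHG8, -0.35 to 0.27 for SNHG15 and -0.41 to 0.86 for SNHG16. Over all genes, 157 higher and 198 lower became 519 and 745 with the block, 528 and 726 with the block and the GC trend removed, 700 and 1168 with the block and the length trend removed, 406 and 375 with DESeq2, 266 and 84 with library size, and 68 to 212 and 47 to 202 with each library left out. With at least 10 counts in every library 105 were lower. Causes were not tested. With 3 libraries per group, a lone remaining pair sets the spread of a group when a library is left out, and the snoRNA rows, from mRNA libraries, hold few counts at this depth.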
